A study of Homo sapiens with 14 samples.

Results

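The zinc finger genes of human chromosome 19 were taken as the protein-coding GENCODE genes of that chromosome whose symbol is ZNF followed by digits and an optional letter. This rule gave 246 genes (chr19 ZNF genes) among 1476 protein-coding genes of the chromosome and 20033 in the genome, and the other 1230 protein-coding genes of chromosome 19 served for comparison. No gene was filtered out on its values. KLF4 ChIP-seq peak lists were read in 4 conditions of BEAS-2B, an established line of human bronchial epithelial cells: WT control, WT As3+, Nrf2 KO control and Nrf2 KO As3+. The As3+ cells received 1 µM As3+ (trivalent inorganic arsenic) for 6 h. Both genotypes were picked after CRISPR-Cas9 transfection (guides to exon 2 of Nrf2) and blasticidin selection, and a western blot for Nrf2 sorted the colonies, so WT here means cells that went through the same procedure and kept the protein. Which or how many colonies entered each library is not given in the sources used here. Each condition had a single KLF4 library (1 per condition). Differences between conditions therefore could not be set against replicates, and no test was run.

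Most C2H2 zinc finger genes of this chromosome arose by repeated tandem duplication and lie in clusters. In the typical member a short first exon carries the promoter, small exons in the middle encode a KRAB box, and a long last exon encodes the whole row of fingers and then the 3′-UTR. A finger holds a zinc ion between a pair of cysteines and a pair of histidines and reads a few bases of DNA. The KRAB box recruits TRIM28 (KAP1), which brings the methyltransferase SETDB1 and HP1 proteins and silences chromatin, mainly over transposable elements. The 3′ ends of the ZNF genes are themselves known to carry TRIM28, SETDB1 and H3K9me3 in many cell types. KLF4 is a zinc finger factor too, with a preference for CACCC and GC-rich DNA, but it is encoded elsewhere in the genome. The name of the group held up against the sequence. Each of the 246 canonical proteins, translated from the genome, had at least 1 finger word (the spaced pairs of cysteines and histidines), with a median of 12 and a maximum of 36, and 187 (76.0%) had a KRAB box word. Of 2853 distances between neighbouring fingers in 1 protein, 92.9% were 28 residues, which is 84 bases of DNA.

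The regions on which the results turn are shown first, all from hg38 and on the strand of the gene. The first set gives 200 bases around the highest KLF4 summit near the transcription start site (TSS) of 4 genes. ZNF653 had the strongest such peak of the group in WT As3+ cells and ZNF93 the second strongest in Nrf2 KO control cells. ZNF71 ranked among the first 4 in both libraries, while ZNF682 was the strongest of those found in WT As3+ and not in Nrf2 KO control. Capitals mark CG dinucleotides.
ZNF653, chr19:11505517-11505716, minus strand, GC 75.5%: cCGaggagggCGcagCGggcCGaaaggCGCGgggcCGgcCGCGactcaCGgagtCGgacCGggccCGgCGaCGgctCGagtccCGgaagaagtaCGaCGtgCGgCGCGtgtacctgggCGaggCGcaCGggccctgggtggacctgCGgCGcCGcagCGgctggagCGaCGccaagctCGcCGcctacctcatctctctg
ZNF71, chr19:56595171-56595370, plus strand, GC 73.5%: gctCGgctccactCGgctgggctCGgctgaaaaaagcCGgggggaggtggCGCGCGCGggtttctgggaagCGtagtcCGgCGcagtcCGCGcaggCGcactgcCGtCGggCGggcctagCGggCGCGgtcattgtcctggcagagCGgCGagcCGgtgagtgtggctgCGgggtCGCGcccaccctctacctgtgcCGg
ZNF682, chr19:20039054-20039253, minus strand, GC 71.5%: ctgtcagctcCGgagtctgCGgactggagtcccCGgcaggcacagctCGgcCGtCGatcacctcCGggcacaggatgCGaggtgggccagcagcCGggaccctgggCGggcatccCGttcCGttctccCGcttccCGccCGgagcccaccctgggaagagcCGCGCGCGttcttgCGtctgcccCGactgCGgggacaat
ZNF93, chr19:19901067-19901266, plus strand, GC 61.5%: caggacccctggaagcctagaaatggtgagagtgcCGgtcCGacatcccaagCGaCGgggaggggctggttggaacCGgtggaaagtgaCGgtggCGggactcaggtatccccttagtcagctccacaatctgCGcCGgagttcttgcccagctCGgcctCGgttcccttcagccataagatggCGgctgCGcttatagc
These windows held 33, 27, 22 and 13 CG dinucleotides in that order.

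The second set contrasts last exons. The first sequence, 168 bases in the last exon of ZNF91, spells a pair of neighbouring fingers and had no KLF4 summit in any of the 4 lists. Its capitals mark the codons of the zinc-binding cysteines and histidines. The other surrounds the strongest last exon summit of the group, in ZNF497, with CG dinucleotides in capitals.
ZNF91, chr19:23362010-23362177, minus strand, GC 39.9%: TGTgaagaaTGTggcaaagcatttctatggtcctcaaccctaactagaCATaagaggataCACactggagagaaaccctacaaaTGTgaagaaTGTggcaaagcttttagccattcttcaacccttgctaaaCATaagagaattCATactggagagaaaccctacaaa
ZNF497, chr19:58357250-58357449, minus strand, GC 74.5%: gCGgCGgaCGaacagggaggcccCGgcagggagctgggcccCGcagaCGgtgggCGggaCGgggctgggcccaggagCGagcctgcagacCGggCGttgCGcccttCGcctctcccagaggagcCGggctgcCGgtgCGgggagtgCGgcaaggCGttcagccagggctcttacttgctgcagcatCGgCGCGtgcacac
The ZNF91 stretch held 0 CG dinucleotides and the ZNF497 stretch 21.

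The depth behind a peak differed between the libraries. The lists held 751, 29870, 76545 and 130 peaks in WT control, WT As3+, Nrf2 KO control and Nrf2 KO As3+ cells, of which 36, 1947, 4736 and 5 lay on chromosome 19. A fold in these lists is the authors' ratio of the fragments over the summit to the local background, with 1 added to each, and together with the listed p it gives the number of fragments. The median number of fragments over a chromosome 19 summit was 25, 10, 7 and 18 in the same order. The lowest local background was 3.10 fragments in WT control and 2.58 in Nrf2 KO As3+, against 0.757 in WT As3+ and 0.491 in Nrf2 KO control. The short lists thus came from the libraries with the highest background, and the part of the background in the number of peaks was not tested. A gene without a summit is therefore only a gene without a listed peak.

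Within 2 kb of the TSS, KLF4 summits were found for a somewhat smaller share of chr19 ZNF genes than of other chromosome 19 genes. A summit within 2 kb of the canonical TSS was found for 0 of 246 genes in WT control, 111 (45.1%) in WT As3+, 156 (63.4%) in Nrf2 KO control and 0 in Nrf2 KO As3+. The exact 95% intervals, which cover counting error only, were 38.8 to 51.6% and 57.1 to 69.4% for the middle 2 libraries. A count of 0 of 246 allows a share of up to 1.22% by a limit of 3 counts, and of up to 1.49% by the exact interval. Among the other chromosome 19 genes the shares were 0.813% in WT control, 53.6% in WT As3+, 73.6% in Nrf2 KO control and 0.0813% in Nrf2 KO As3+. The chr19 ZNF genes were thus 8.46 percentage points below the other genes in WT As3+ (95% interval 1.61 to 15.2) and 10.2 points below them in Nrf2 KO control (3.86 to 16.8). The intervals treat genes as independent, although members lie in clusters and neighbouring genes can share a summit, so they may be too narrow. Genome-wide, 52.5% and 67.5% of protein-coding genes had such a summit in these 2 libraries. The 262 ZNF genes on other chromosomes were at 65.3% and 77.9%, above the genes of the same name on chromosome 19. At a window of 1 kb the chr19 ZNF genes were 3.41 and 5.53 points below the others. Both intervals (3.42 points above to 10.1 below, and 0.974 above to 12.3 below) included 0. At 5 kb the chr19 ZNF genes were 14.6 and 16.6 points below. Close to the TSS the order turned. The highest summit lay within 250 bp for 76 of 246 chr19 ZNF genes and 278 of 1230 others in WT As3+. In Nrf2 KO control it did so for 80 and 331 genes, again a larger share of the chr19 ZNF genes.

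**Figure D1:**
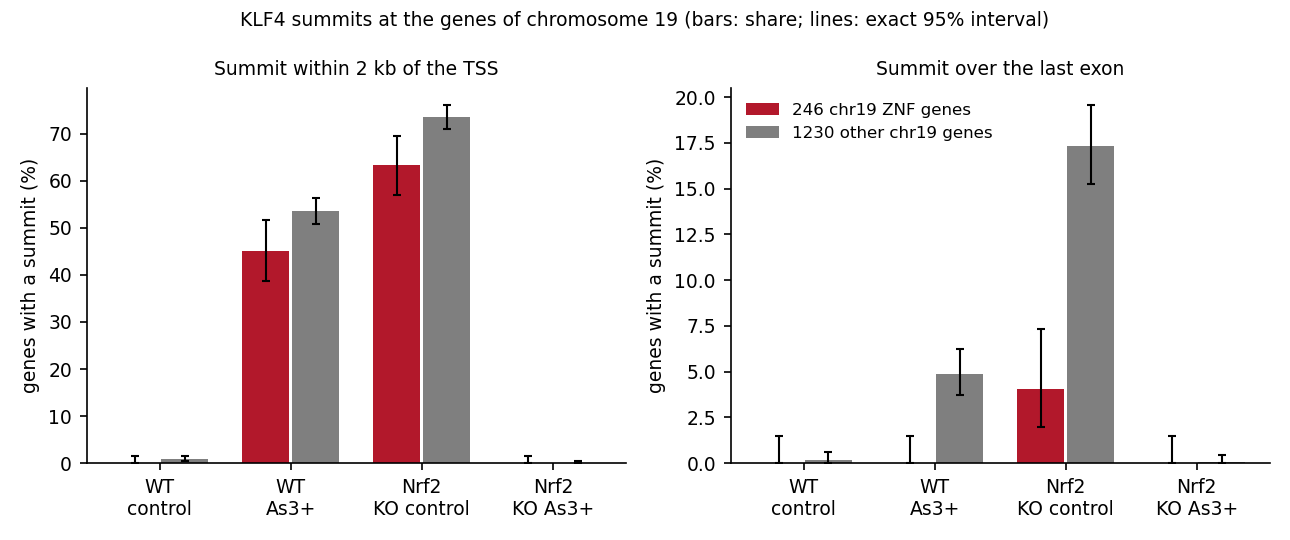
Share of genes with a KLF4 summit (vertical axis, percent) in each of the 4 libraries, within 2 kb of the TSS (left) and over the last exon (right), for chr19 ZNF genes and the other chromosome 19 genes, on different vertical scales. Bars are shares and lines exact 95% intervals for counting error. In WT As3+ and Nrf2 KO control the bars stand at 45.1 against 53.6% and 63.4 against 73.6% at the TSS, and at 0 against 4.88% and 4.07 against 17.3% over the last exon.

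The larger count was found in the longer list. That list was then cut to its 29870 strongest peaks by −log10 p, the length of the WT As3+ list. After the cut 99 chr19 ZNF genes (40.2%) had a summit near the TSS, against 111 in WT As3+, and the order of the 2 libraries turned. The interval at the cut (34.1 to 46.7%) included the 45.1% of WT As3+. The other chromosome 19 genes turned the same way, with 645 (52.4%) at the cut against 659 (53.6%) in WT As3+. With the full lists, 91 genes (37.0%) had a summit in both libraries and 70 (28.5%) in neither. Listed in Nrf2 KO control alone were 65 (26.4%), and in WT As3+ alone 20 (8.13%). The shared genes made up 82% of the WT As3+ genes and 58.3% of the Nrf2 KO control genes. Among the other chromosome 19 genes 621 of 1230 (50.5%) were shared, which was 94.2% and 68.6%. Another 284 (23.1%) were listed in Nrf2 KO control alone, 38 (3.09%) in WT As3+ alone and 287 (23.3%) in neither. With the cut list, 66 genes were shared, which was 59.5% of the WT As3+ genes and 66.7% of the Nrf2 KO control genes. With the cut list the corresponding shares for the other genes were 75.3% and 76.9%.

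Summits of chr19 ZNF genes crowded just downstream of the TSS. Of the highest summits, 68.5% in WT As3+ and 51.3% in Nrf2 KO control lay within 250 bp of the TSS, against 42.2% and 36.6% for the other genes. Only 34.2% and 26.3% lay upstream, against 42.3% and 43.5%. The median position was 111 bp downstream of the TSS in WT As3+ and 166 bp in Nrf2 KO control, against 77 and 100 bp for the other genes. Counting every summit within 5 kb, the bin from 0 to 250 bp held 22.0 and 29.3 summits per 100 chr19 ZNF genes, against 16.3 and 22.0 for the other genes. Beyond 2 kb the order was the opposite: a 250-bp bin held on average 0.288 and 0.644 summits per 100 chr19 ZNF genes, and 1.33 and 3.58 per 100 other genes. Summits at the TSS of neighbouring genes were not left out of these bins, and 1 summit can count for several genes. Another coding TSS lay within 2 kb for 14.2% of chr19 ZNF genes and 19.8% of the others. More than 1 summit within 2 kb was found for 20.7% and 39.1% of the chr19 ZNF genes that had any, and for 40.2% and 58.1% of the others. Peak height differed less, with a median fold of 4.85 and 5.34 against 5.38 and 5.60, and medians of 12 and 10 fragments in both groups of genes.

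**Figure D2:**
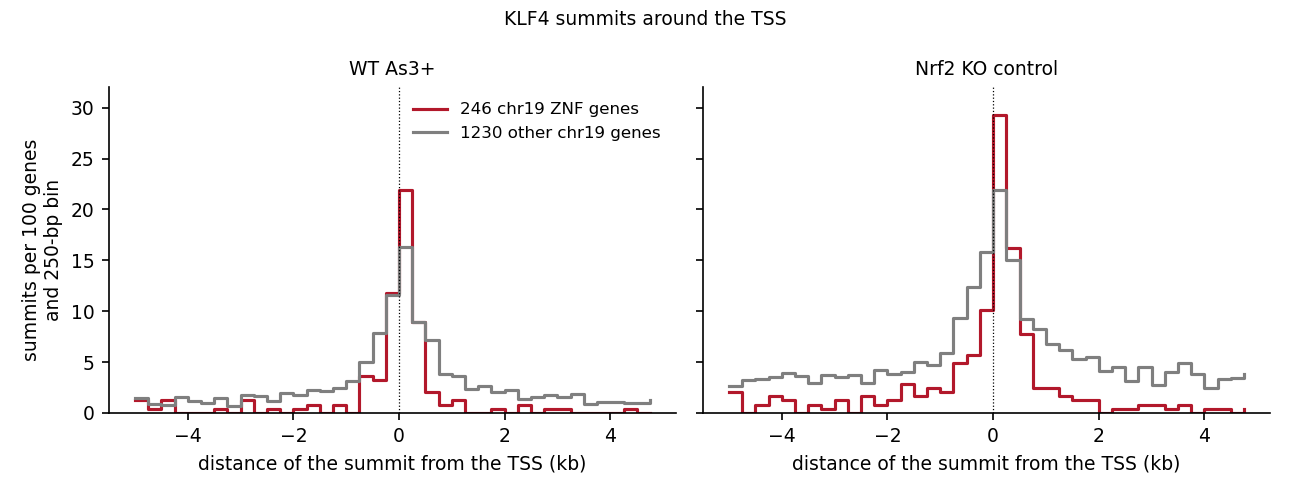
KLF4 summits by distance from the TSS (horizontal axis, kb, positive in the direction of transcription) as summits per 100 genes in bins of 250 bp (vertical axis), in WT As3+ (left) and Nrf2 KO control (right). In chr19 ZNF genes the bin from 0 to 250 bp reaches 22.0 and 29.3 and the curve falls to 0.288 and 0.644 on average beyond 2 kb, where the other genes keep 1.33 and 3.58. Summits at the TSS of neighbouring genes are included.

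ZNF653 had the highest peak of the group in WT As3+, with a fold of 10.3 and 26 fragments at chr19:11505396-11505851, 222 bp downstream of its TSS. In Nrf2 KO control its peak had a fold of 4.88 and 9 fragments. ZNF823 (fold 9.45, 23 fragments), ZNF414 (8.66, 22), ZNF71 (8.66, 21) and ZNF787 (8.52, 19) followed in WT As3+. Of these, ZNF414 and ZNF71 were as prominent in Nrf2 KO control, at folds of 8.68 and 8.95 with 17 and 18 fragments. ZNF274, ZNF180, ZNF443, ZNF333 and ZNF682 completed the first 10 of WT As3+, with folds between 6.50 and 8.15 and 13 to 20 fragments. ZNF682 was the only gene of these 10 with no summit near its TSS in Nrf2 KO control.

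In Nrf2 KO control the highest peak by −log10 p was that of ZNF524, at a fold of 9.10 with 24 fragments, whose summit lay 750 bp upstream of the TSS. ZNF93 came next, with the highest fold of the group (10.1, 14 fragments) at chr19:19900970-19901366, and had no summit in WT As3+. ZNF625 (fold 8.2, 16 fragments) and ZNF30 (8.12, 13) were likewise among the first 10 without a summit in WT As3+. ZNF561, ZNF799, ZNF8 and ZNF324B filled the remaining places, with folds of 7.56 to 8.11, and each also had a summit in WT As3+ at folds of 4.87 to 6.78. Among the 91 genes with a peak in both lists, the fold was higher in Nrf2 KO control for 58 (63.7%). This is near the 63.0% of the other chromosome 19 genes. The highest peak was taken in each list separately, so the peaks compared need not overlap.

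**Figure D3:**
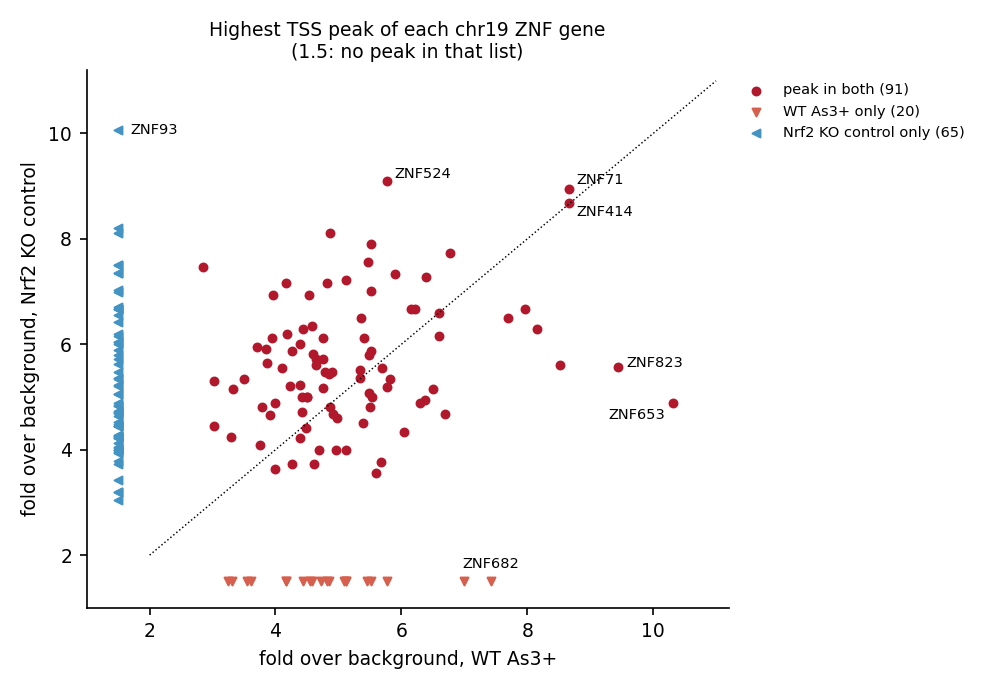
Fold over the local background of the highest KLF4 peak within 2 kb of the TSS for each chr19 ZNF gene, in WT As3+ (horizontal axis) and Nrf2 KO control (vertical axis). The 91 points have a peak in both lists, the 20 triangles along the bottom in WT As3+ only and the 65 along the left edge in Nrf2 KO control only, and the dotted line marks equal folds. The peaks of a gene in the lists need not overlap. ZNF653 lies far to the right at 10.3 against 4.88, and ZNF93 high on the left edge at 10.1.

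Among members of known function, the repressors of transposable elements differed in where they were listed. ZNF91, which binds SVA elements, had low peaks near its TSS in both lists, with a fold of 3.02 (9 fragments) in WT As3+ and 4.45 (9) in Nrf2 KO control. ZNF93, which binds LINE-1 elements, had a summit in Nrf2 KO control only. The paralogs ZNF417 and ZNF587 repress HERV-K proviruses and were listed in different libraries: ZNF417 had a summit in Nrf2 KO control only (fold 7.5, 14 fragments, with another coding TSS within 2 kb) and ZNF587 in WT As3+ only (3.54, 8). ZNF146, whose protein consists almost wholly of fingers, had a summit in Nrf2 KO control alone, 1537 bp downstream of the TSS and with another coding TSS within 2 kb. ZNF274, which recruits SETDB1 to the 3′ ends of ZNF genes, had peaks in both lists, with folds of 8.15 and 6.29 and 15 and 10 fragments.

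Other members of known function followed no common pattern either. ZNF331, an imprinted gene, had a fold of 5.39 in WT As3+ and 4.51 in Nrf2 KO control. ZNF382, a KRAB repressor described as a tumour suppressor, had 5.51 and 5.87. ZNF296, whose mouse counterpart binds the Klf4 protein, had 5.50 and 4.80. The highest peaks of ZNF331, and likewise those of ZNF296, did not overlap between the lists, so these folds belong to different sites. ZNF350 (ZBRK1), a partner of BRCA1, had a summit in Nrf2 KO control alone (4.12, 6 fragments), 1031 bp from the TSS. In total 6 of these 10 genes had a TSS summit in WT As3+ and 9 in Nrf2 KO control, beside 45.1% and 63.4% of all chr19 ZNF genes and 53.6% and 73.6% of the other genes.

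Members were also grouped by position. A new cluster was started where neighbouring members lay over 500 kb apart, which gave 20 groups, of which 10 held at least 5 members and together 232 genes. The longest, from ZNF101 to ZNF254 (chr19:19668796-24129968, 37 members), had the lowest shares of these 10, with a TSS summit in 6 genes (16.2%, interval 6.19 to 32) in WT As3+ and 14 (37.8%, 22.5 to 55.2) in Nrf2 KO control. Outside it, 50.2% and 67.9% of the 209 members had one. The highest shares of the 10 were those of the 5 genes from ZNF302 to ZNF792. They were 80% (28.4 to 99.5) in WT As3+ and 100% (47.8 to 100) in Nrf2 KO control. Of the clusters with more than 5 members, the 16 genes from ZNF628 to ZNF835 had the highest share in WT As3+, 75.0% (47.6 to 92.7), and the same share in Nrf2 KO control. Of these larger clusters, the 25 genes from ZNF653 to ZNF791 had the highest share in Nrf2 KO control, 21 genes (84%, 63.9 to 95.5). In WT As3+ 16 of them (64%, 42.5 to 82) had a summit. The promoters of the ZNF101 to ZNF254 cluster were poor in CpG, with a median of 3.79 per 100 bp in the 500 bp around the TSS against 7.19 outside it, and their median GC content was 58.1% against 61.5%. ZNF91, ZNF93 and ZNF682 belong to this cluster. The other protein-coding genes inside the clusters were not always above the members. Of the 6 clusters with more than 10 such neighbours, they were below the members in 4 in WT As3+ and in 5 in Nrf2 KO control. From ZNF628 to ZNF835, 30.4% of 23 neighbours had a TSS summit in WT As3+ and 52.2% in Nrf2 KO control. From ZNF264 to ZNF446 it was 18.2 and 63.6% of 22 neighbours, against 53.5 and 69.8% of the members. From ZNF575 to ZNF180 the neighbours were above the members, at 50% (7 of 14) and 71.4% against 30.4 and 56.5%.

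**Figure D4:**
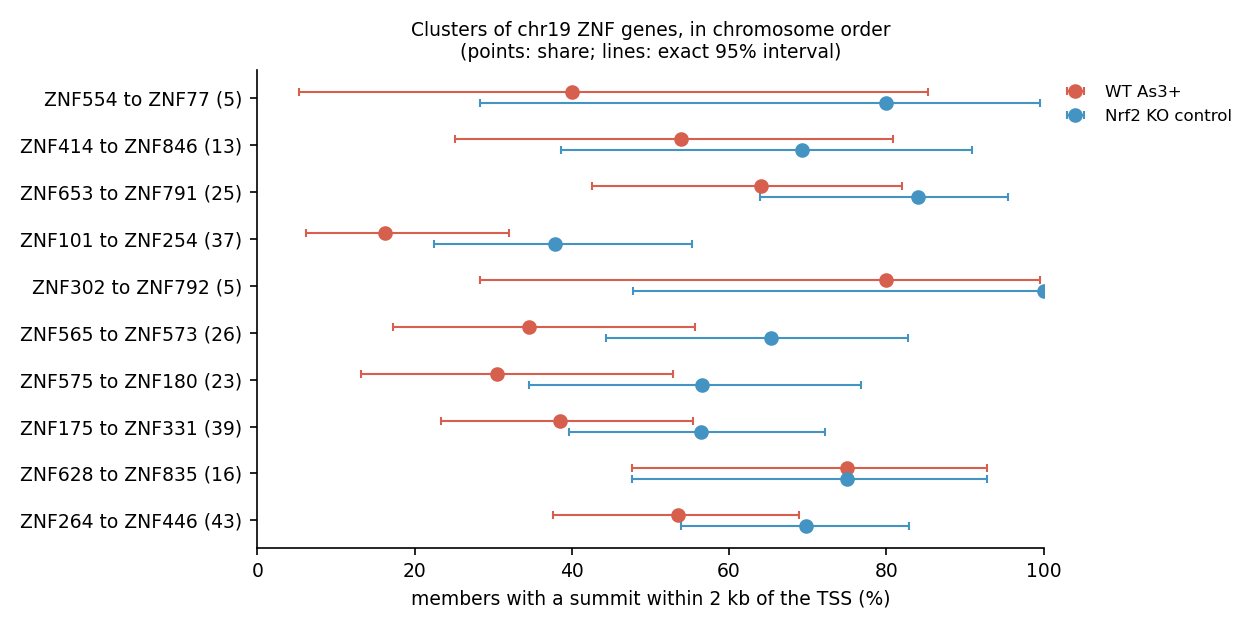
Share of members with a KLF4 summit within 2 kb of the TSS (horizontal axis, percent) for the 10 clusters of at least 5 chr19 ZNF genes, named by first and last member with the number of genes, in WT As3+ and Nrf2 KO control. Points are shares and lines exact 95% intervals. The cluster from ZNF101 to ZNF254 is lowest in both libraries, at 16.2 and 37.8%.

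Base composition at the TSS moved with the presence of a summit in both groups of genes. The median GC content of the 500 bp around the TSS was 61.1% for chr19 ZNF genes and 65.3% for the others. Within bands from 55% GC up the 2 groups of genes came close to each other. The bands below, under 50% and from 50 to 55%, held only 4 and 14 chr19 ZNF genes. In WT As3+ 1 and 2 of them had a summit, against 1 of 71 and 8 of 72 others. In Nrf2 KO control it was 1 and 5, against 5 and 22 others. In WT As3+ cells 30.4% of chr19 ZNF genes and 27% of the others had a summit at 55 to 60% GC, 43.8 and 47.2% at 60 to 65%, 73.8 and 71.8% at 65 to 70%, and 81.0 and 77.4% above that. In Nrf2 KO control 46 of 92 chr19 ZNF genes and 102 of 189 others had one in the first of these bands, and the pairs for the higher bands were 67.1 and 74.5%, 85.7 and 88.1%, and 90.5 and 94.1%. With 4 to 10 CpG per 100 bp the chr19 ZNF genes were lower in each band and library, and at 10 or more the shares were close (80.0 and 79.3%, 90.0 and 92.5%). With 6 to 8 CpG per 100 bp, 41.2% of 85 chr19 ZNF genes and 64.4% of 180 other genes had a summit in WT As3+, and 63.5 and 81.7% in Nrf2 KO control. The part of GC content and CpG in the difference between the groups was not tested.

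Of the members with and without a KRAB box word, 75 of 187 (40.1%, interval 33.0 to 47.5) and 36 of 59 (61.0%, 47.4 to 73.5) had a TSS summit in WT As3+, with intervals that just overlapped. In Nrf2 KO control the shares were 62.0% (54.7 to 69.0) and 67.8% (54.4 to 79.4). The promoters of the first group were poorer in GC, with a median of 60.1% against 65.7%. Within bands of GC content the order varied, but the groups without the word held only 17, 11 and 31 genes from the lowest band up. Those with the word held 93, 62 and 32. Below 60% GC the shares with and without the word were 25.8 and 41.2% in WT As3+ and 46.2 and 52.9% in Nrf2 KO control. At 60 to 65% GC they were 45.2 and 36.4%, and 67.7 and 63.6%. At 65% and above they were 71.9 and 80.6% in WT As3+, and 96.9 and 77.4% in Nrf2 KO control. By number of fingers the shares in WT As3+ and Nrf2 KO control were 58.7 and 74.6% with 1 to 9, 38.5 and 60.6% with 10 to 14, and 43.2 and 58.1% with more, and the intervals of the 3 classes overlapped in both libraries. For 35 members the TSS of another protein-coding gene lay within 2 kb, so that a summit there cannot be assigned to 1 gene, and 18 of these had one in WT As3+ and 30 in Nrf2 KO control. Without such genes in either group, a comparison chosen after seeing the data, the shares were 44.1 against 50.1% in WT As3+, where the interval of the difference (1.40 points above to 13.3 below) included 0, and 59.7 against 70.9% in Nrf2 KO control (4.16 to 18.5 points below).

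The last exons of the chr19 ZNF genes were nearly free of KLF4 summits. No member had a summit over its last exon in WT control, WT As3+ or Nrf2 KO As3+, and 10 of 246 (4.07%, interval 1.97 to 7.35) had one in Nrf2 KO control, with 11 summits in all. Of the other chromosome 19 genes 0.163% had a last exon summit in WT control, 4.88% in WT As3+, 17.3% in Nrf2 KO control and 0.0813% in Nrf2 KO As3+. The difference was 4.88 percentage points in WT As3+ (3.01 to 6.23) and 13.3 points in Nrf2 KO control (9.43 to 16.1), both with the chr19 ZNF genes lower. Without the summits within 2 kb of any annotated TSS, they were 1.63 and 6.02 points lower, and the interval for WT As3+ (0.0141 above to 2.50 below) then included 0. This was so although their last exons offer more sequence per gene, with a median length of 3376.5 bp against 733 bp. Per 100 kb of last exon there were 1.19 summits in chr19 ZNF genes and 18.2 in the others in Nrf2 KO control, and 0 and 4.53 in WT As3+. Genome-wide, 3.51% of protein-coding genes had a last exon summit in WT As3+ and 10.7% in Nrf2 KO control, below the other chromosome 19 genes. Of the 262 ZNF genes on other chromosomes, 2.67% in WT As3+ and 9.16% in Nrf2 KO control had one.

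**Figure D5:**
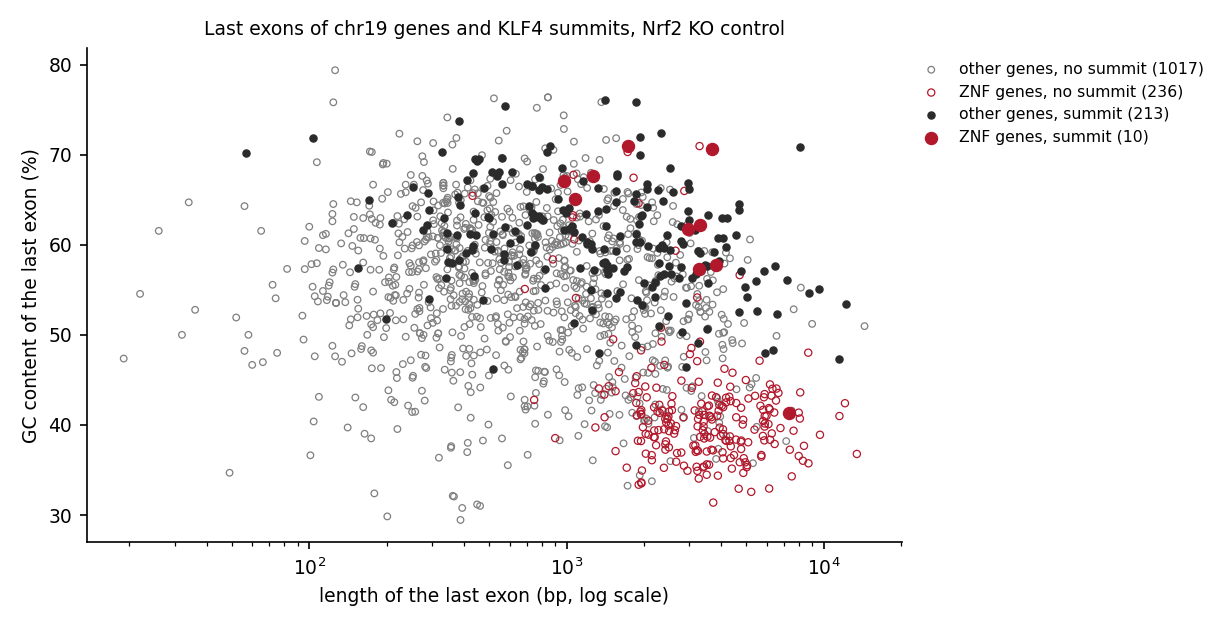
Length (horizontal axis, bp, log scale) and GC content (vertical axis, percent) of the last exon of each chromosome 19 protein-coding gene, with genes that had a KLF4 summit over it in Nrf2 KO control as filled points. Most chr19 ZNF genes form a group of long last exons around 40.7% GC in which 1 gene has a summit, and 9 of their 10 filled points lie above 55% GC.

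Length and base composition of the last exon both differed between the groups. Among last exons of at least 3000 bp, 5 of 148 chr19 ZNF genes and 38 of 111 other genes had a summit in Nrf2 KO control, and 0 and 8 in WT As3+. The median GC content was 40.7% in chr19 ZNF genes and 57.0% in the others. Below 40% GC, 0 of 111 chr19 ZNF last exons and 0 of 41 others had a summit in either library. From 40 to 45% GC, 1 of 94 and 0 of 82 had one in Nrf2 KO control, and none in WT As3+. At 60% GC and above, 7 of 17 chr19 ZNF genes (41.2%, interval 18.4 to 67.1) and 119 of 431 other genes (27.6%, 23.4 to 32.1) had one in Nrf2 KO control, while in WT As3+ the counts were 0 of 17 and 35 of 431 (8.12%, 5.72 to 11.1). Among last exons under 50% GC and at least 1000 bp long, 1 of 218 and 7 of 118 had a summit in Nrf2 KO control and 0 of 218 and 1 of 118 in WT As3+. GC content and the kind of gene go together here, and the part of each was not tested.

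The finger repeats resemble each other. Of all 75-base words of the last exons, 2.35% in chr19 ZNF genes and 2.13% in the other genes occurred a second time in the genome on either strand. In the TSS windows the shares were 1.87 and 2.56%. The median share per gene was 0.226% over the last exon, and 1 chr19 ZNF gene exceeded 50%. This was ZNF98 at 52.2%, and ZNF492 (32.3%) and ZNF417 (25.4%) were also high. Words that differ by a mismatch were not counted as repeats, and the part of similar sequence in the last exon counts was not tested.

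The 10 genes with a last exon summit in Nrf2 KO control were not typical of the group. Their last exons had a median GC content of 63.6%, and 1 of the 10, ZNF850, carried the KRAB word. ZNF497 had 2 summits, the stronger with a fold of 7.30 and 10 fragments at chr19:58357159-58357510, 299 bp into the exon. ZNF580 (fold 5.56, 9 fragments), ZNF837 (5.54, 8), ZNF835 (5.36, 7) and ZNF444 (4.69, 6) followed. ZNF526, ZNF296, ZNF865, ZNF850 and ZNF574 had folds of 3.27 to 4.31 on 4 to 6 fragments. Of the 11 summits 9 lay in coding sequence, and 5 lay within 2 kb of an annotated TSS of some transcript. The weaker summit of ZNF497 lay 20 bp from such a TSS. In ZNF526, ZNF835, ZNF865, ZNF296 and ZNF497 a summit fell within the stretch that encodes the fingers. ZNF850 was the exception in composition, with 41.3% GC and a summit 92.4% of the way along a last exon of 7325 bp. With peaks of −log10 q of at least 5 only, 1 gene was left, and with the list cut to the length of the WT As3+ list 4 genes.

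Gene bodies were then counted away from promoters. More than 2 kb from any annotated TSS, the spans of the chr19 ZNF genes held 7 summits in WT As3+ and 50 in Nrf2 KO control, or 1.29 and 9.19 per Mb, against 19.7 and 70.9 per Mb in the other genes. In the short lists they held 2 summits in WT control and 1 in Nrf2 KO As3+, or 0.368 and 0.184 per Mb, against 0.500 and 0 per Mb in the other genes.

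Motif words were also counted. KLF words (CCACACCC and CCACGCCC), AP-1 words (TGACTCA and TGAGTCA) and the GC box CCCCGCCCC were searched on both strands in 200 bp around every summit (neighbouring words may overlap in part). A KLF word lay under 6.57% of 137 TSS summits in WT As3+ (interval 3.05 to 12.1) and 9.91% of 222 in Nrf2 KO control (6.32 to 14.6), against 6.02% of all 200-bp windows tiled over the same places. At the other chromosome 19 genes the shares were 10.5 and 8.58%, against 8.09% of tiled windows. The GC box lay under 13.1 and 9.01% of the chr19 ZNF summits and in 2.48% of tiled windows, while the median GC content was 66.5 and 64.75% under the summits and 48.5% in the tiles. AP-1 words lay under 0.730 and 1.80%, against 2.22% of tiles. In the tiled last exons of the chr19 ZNF genes 3.19% of windows held a KLF word and 1 of the 11 last exon summits had one. None of the shown windows held any of these words. In RefSeq promoters (GRCh38.p14, 250 bases before to 50 after the start), 216 of the 246 genes matched, with 1 promoter kept per gene. Of these, 24.1% held the GC box and 6.48% a KLF word, against 15.7 and 8.05% of all 35116 promoters. The latter were not cut to 1 per gene, so the sets are not alike.

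The genes through which KRAB zinc finger proteins act were also looked up. Of 14 such genes, 7 had a TSS summit in WT As3+ and 11 in Nrf2 KO control, with 0 in the other 2 libraries and 0 over a last exon in all 4. Over all protein-coding genes the shares were 52.5 and 67.5%, so these counts were near the background. TRIM28, the common co-repressor, had a fold of 3.56 (9 fragments) in WT As3+ and 4.89 (10) in Nrf2 KO control. SETDB1, the H3K9 methyltransferase, had a summit in Nrf2 KO control alone (5.38, 8 fragments). CBX3 (HP1γ) had 6.80 and 8.51, and TASOR of the HUSH complex 7.32 and 7.61. MPHOSPH8, which belongs to the same complex, had a summit in WT As3+ alone (5.57, 14 fragments). CBX5 (HP1α) and ATRX had none in either list.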

How the data were processed

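KLF4 ChIP-seq was read in 4 libraries of BEAS-2B cells, 1 per condition. The labels name 1 input for KLF4, from BEAS-2B cells, and no input labelled Nrf2 KO or As3+. The authors sequenced 75-nt reads (base calls with bcl2fastq 2.17 per the labels), aligned them with BWA to hg38 and deposited 1 peak list per library. The peak caller is not given in the sources used here. In the deposited lists the fold is a ratio of fragments over the summit to local background, the p and q are on a −log10 scale, and the score is the whole part of 10 times that q value. Read depth per library was not used here, so depth and binding cannot be told apart, and folds and counts of peaks were not read as levels. Fragments were solved from fold and p, assuming 1 added to both terms and a Poisson upper tail. GENCODE 44 gave genes and canonical transcripts, and its 5′ end and last exon were used. A gene was counted where a summit lay within 2 kb of its TSS or over its last exon. Shares carry exact Clopper-Pearson 95% intervals and differences Newcombe intervals. A count of 0 of 246 genes was given the limit of 3 counts. All cover counting error only and treat genes as independent, although members lie in clusters and neighbouring genes can share a summit. With 1 library per condition no test was run. Named genes were the first 10 by −log10 p in each of WT As3+ and Nrf2 KO control near the TSS, the 10 with a last exon summit, and a list of members of known function. Members and lists were chosen with earlier results of these data known. Alternatives were the window, the TSS used, the q, the list length, interval overlap and the genes compared. The counting was tested on simulated data. Python 3.11.15, pandas 2.3.3, scipy 1.17.1, statsmodels 0.14.6 and pysam 0.24.0 were used. The histone mark libraries were not used here. A result on 1 site within a gene body is not reported here.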

Additional observations from a re-analysis of the deposited data

How the results depend on the processing

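With 1 library per condition no replicate could be left out. No paired analysis was possible because no group holds 2 libraries. Of 108 alternatives, 85 stayed within the counting interval of the value given, 23 moved beyond it and 0 reversed. A reversal could be recorded only for the 30 differences from the other genes in WT As3+ and Nrf2 KO control. In WT control and Nrf2 KO As3+ no chr19 ZNF gene had a summit near the TSS or over the last exon at any setting. These lists therefore say little on stability. In WT As3+ and Nrf2 KO control the chr19 ZNF genes were below the other genes in 30 of 30 alternatives, with an interval below 0 in 24. These counts describe the settings and are not tests, and no TSS window under 1 kb was among them. With peaks of −log10 q of at least 5, the TSS share was 17.9% in WT As3+ and 27.2% in Nrf2 KO control, the last exon share in Nrf2 KO control 0.407%, and the last exon differences from the other genes -1.79 and -3.50 points. With the Nrf2 KO control list cut to the length of the WT As3+ list, its TSS share was 40.2%, its last exon share 1.63% and its last exon difference -6.18 points. The last exon differences in WT As3+ and Nrf2 KO control were -7.07 and -17.5 points with peak overlap in place of summits, -1.63 and -6.02 without summits near a TSS, and -7.37 and -23.4 for last exons of at least 1000 bp. For last exons under 50% GC, a limit chosen after seeing the data, they were -0.395 and -2.71, with a share of 0.455% in Nrf2 KO control. With both limits they were -0.847 and -5.47, with a share of 0.459%, and -0.847 in WT control and in Nrf2 KO As3+. With the TSS of any transcript, the TSS difference in WT control was -1.63 points. The cause of these shifts was not tested.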
